A study of Mus musculus with 18 samples.

Results

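BTG/TOB and growth arrest genes were followed in the nuclear and the cytoplasmic RNA of mouse myofibers, the multinucleated contractile cells of skeletal muscle. The members were every probe on the array whose gene name was Btg1, Btg2, Btg3, Tob1, Tob2, Cdkn1a, Gadd45a, Gadd45b or Gadd45g. That gave 12 probes, on 21 spots, for 9 genes, out of 55681 probes on 59305 spots for 35527 gene names. The group was chosen by the nuclei minus cytoplasm difference of Btg1, one of the coding genes most enriched in nuclei, so for all members that difference is given below as a description, with no p-value.

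The 3 hindlimb muscles were the extensor digitorum longus, written EDL, the soleus, and the tibialis anterior, written TA, of untreated female CD1 mice at 3 months of age, with no transgene or other treatment named. Muscles were digested with collagenase, intact fibers were picked and washed, and each sample was a pool of 5 to 10 fibers, lysed in a detergent buffer and spun to separate a nuclear pellet from a cytoplasmic supernatant. Each of the 6 groups (EDL cytoplasm, EDL nuclei, soleus cytoplasm, soleus nuclei, TA cytoplasm and TA nuclei) had 3 arrays, 18 in all. EDL and soleus replicates of the same number came from the same pair of mice in both fractions. Mouse 5 gave fibers, per the labels, to the first and also the second TA cytoplasm sample, so those were not fully separate. That mouse also gave part of EDL and soleus replicate 2. Mouse 1 gave TA nuclei 1 and part of TA cytoplasm 1, and mouse 2 gave TA nuclei 2 and part of TA cytoplasm 2. No fit blocked mice shared between TA and the other muscles. Mouse 3 gave both TA nuclei 3 and part of EDL and soleus replicate 1.

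Proteins of the BTG/TOB family slow cell growth, and they do so in part by bringing the CCR4-NOT complex, which shortens the poly(A) tails of mRNAs, to its targets. Cdkn1a encodes p21, an inhibitor of cyclin-dependent kinases that p53 induces and that also accumulates when myoblasts leave the cell cycle and differentiate. Gadd45 proteins are small stress-induced proteins that bind the kinase Map3k4 upstream of p38 and JNK, and Gadd45a is known in muscle for its rise after denervation and fasting. Many of these mRNAs are short-lived and are induced within minutes to hours of a stimulus.

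Probe sequences matter here because Btg1 and Cdkn1a were each read by several probes that gave different pictures. All positions are those of the array design on mouse build mm9, and 30 of the 60 bases of a probe are printed. The Btg1 probes lay on chromosome 10, at chr10:96082071-96082130 (called the near probe, at base 1633 of the transcript) and at chr10:96085358-96085417 (the far probe, at base 4920 of the same transcript), 3287 bases apart on the plus strand. Capitals in the far probe mark ATTTA, the core of AU-rich elements, which are found in many unstable mRNAs.
Btg1 near probe, chr10:96082071-96082100: gagtctttcccacaaaccaccatctatttt
Btg1 far probe, chr10:96085364-96085393: ttaaatcagtcggATTTAtgaataacttca
The Cdkn1a probes lay on chromosome 17, plus strand. The variant 2 probe, at chr17:29227986-29228045, was designed on the 5′ end of transcript variant 2. The start codon probe, at chr17:29235299-29235358, lay 7313 bases downstream and holds the ATG, in capitals below. The 3′ probe, at chr17:29237377-29237436, lay a further 2078 bases downstream at base 1619 of variant 1 and was spotted 10 times on each array.
Cdkn1a variant 2 probe, chr17:29227986-29228015: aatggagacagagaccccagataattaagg
Cdkn1a start codon probe, chr17:29235329-29235358: tcttgtgtttcagccacaggcaccATGtcc
Cdkn1a 3′ probe, chr17:29237377-29237406: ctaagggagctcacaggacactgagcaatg
ATTTA, searched on the strand of the transcript, was present in 3 of the 12 member probes (Btg1 far, Btg3 and Gadd45a) and in 7.71% of all probes. None of the member probes shared a run of 30 bases with another probe of the array.

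The other genes had 1 probe each. They lay at chr1:135972094-135972153 on the minus strand for Btg2, chr16:78360193-78360252 on the minus strand for Btg3, chr11:94075956-94076015 on the plus strand for Tob1 and chr15:81679488-81679547 on the minus strand for Tob2. The Gadd45a probe was at chr6:66985376-66985435 on the minus strand, that of Gadd45b at chr10:80394367-80394426 on the plus strand and that of Gadd45g at chr13:51943733-51943792 on the plus strand.

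Some facts of the whole series bear on every value below. Values are log2 of the processed intensity after quantile normalisation, and a level is never compared between probes. The median SD between replicates was 0.12 to 0.16 in nuclei and 0.28 to 0.42 in cytoplasm, so smaller differences could be seen between nuclear groups. Slide 1 held all EDL and soleus cytoplasm and TA cytoplasm 1. Slide 2 held the EDL and soleus nuclei, slide 3 the TA nuclei with TA cytoplasm 2, and slide 4 TA cytoplasm 3. In EDL and soleus an effect of slide cannot be told apart from one of fraction, and where TA nuclei are compared with other nuclei it cannot be told apart from one of muscle. All 8 myofiber markers were well above background on every array, and the summed intensity of 6 slow fiber markers was 87800 to 143000 in soleus against 1530 to 15300 in EDL and TA. Of 5 satellite cell markers only Sdc4, which other cells also express, was well above background on EDL arrays, and Pax7, which defines these cells, was so on all nuclear arrays of soleus and TA but on no EDL array. RNA of other cells was present: the 8 endothelial markers summed to 2100 to 7770 in cytoplasm and 6790 to 10600 in nuclei, and 8 of 8 of them, 6 of 7 connective tissue markers and 5 of 6 Schwann cell markers were called higher in nuclei. So were 8 of 8 myofiber markers, and of 8 macrophage markers 0 were higher and 5 lower (median -0.45). Of all genes tested 30.3% were higher and 40.3% lower. The part of other cells in the results was not tested.

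The Btg1 far probe had the largest difference between fractions of the 12 probes. On the 3 arrays of EDL it read 3.72, 3.48 and 4.60 in cytoplasm and 9.07, 9.15 and 9.01 in nuclei. In soleus it read 3.62, 5.97 and 4.50 in cytoplasm and 9.12, 9.33 and 9.30 in nuclei, and in TA 5.16, 4.80 and 3.02 against 8.84, 8.89 and 8.73. Every nuclear array was thus far above every cytoplasmic array, with soleus cytoplasm 2 the highest of the cytoplasm. The nuclear excess came to 5.14 (EDL), 4.55 (soleus) and 4.49 (TA), each with an SE of 0.54, and to 4.73 (SE 0.31) over the 3 muscles. Only 1, 1 and 2 of the 3 cytoplasmic arrays were well above background in EDL, soleus and TA, so the size of this difference rests on readings near the detection limit.

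**Figure D1:**
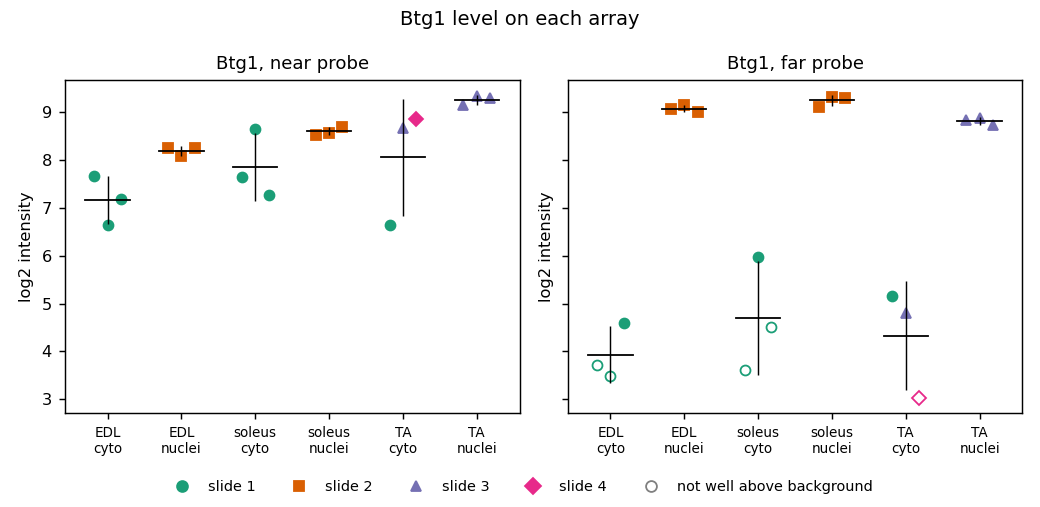
Level of Btg1 (log2 intensity) on each of the 18 arrays, by the near and the far probe; points are arrays, coloured by slide, open where not well above background, and bars are the mean ± SD of 3 arrays. Nuclear arrays sit between 8.73 and 9.33 by the far probe and cytoplasmic arrays between 3.02 and 5.97, whereas the fractions lie close together or overlap by the near probe.

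The near probe of the same transcript moved far less. It read 7.66, 6.65 and 7.20 in EDL cytoplasm and 8.25, 8.08 and 8.25 in EDL nuclei. It read 7.66, 8.66 and 7.28 in soleus cytoplasm against 8.53, 8.58 and 8.69 in soleus nuclei, and 6.64, 8.67 and 8.85 in TA cytoplasm against 9.14, 9.33 and 9.31 in TA nuclei. The fractions were separate in EDL and TA and overlapped in soleus, where cytoplasm 2 lay within the nuclear range. The difference was 1.02, 0.74 and 1.21 in EDL, soleus and TA (SE 0.47), and 0.99 (SE 0.27) over the 3 muscles. Taken within each array, the far probe minus the near probe was 4.12 higher in nuclei than in cytoplasm in EDL, 3.82 in soleus and 3.28 in TA, with no overlap of arrays. Since the contrast of the fractions chose Btg1, this ratio is also given as a description. Its size rests on the same cytoplasmic readings of the far probe near the detection limit. The ratio does not show which transcripts carried the signal at either probe.

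The other BTG/TOB genes differed in direction. Btg2, an immediate-early member of the family that p53 also induces, was higher in nuclei by 1.18, 1.15 and 2.75 in EDL, soleus and TA (SE 0.47), and by 1.69 (SE 0.27) over the 3 muscles. In TA it read 6.28, 5.44 and 4.98 in cytoplasm against 8.31, 8.41 and 8.23 in nuclei, and the lowest of these was not well above background. In EDL it read 8.38, 7.76 and 10.03 against 9.92, 9.79 and 10.00, where cytoplasm 3 lay above all nuclear arrays. In soleus it read 9.62, 8.64 and 8.23 against 10.17, 9.99 and 9.79, with no overlap.

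Tob1 and Tob2, which also bind the poly(A)-binding protein, lay on opposite sides. Tob1 was higher in nuclei by 1.60 (SE 0.30) in TA, where cytoplasm ran from 5.84 to 6.66 and nuclei from 7.77 to 7.89. Its difference was only 0.09 in EDL and 0.28 in soleus, with overlapping arrays. Tob2 was lower in nuclei by 0.64, 0.70 and 0.90 in EDL, soleus and TA (SE 0.22) with no overlap in any of them, and its difference over the 3 muscles was -0.75 (SE 0.13). With no scaling between arrays this went to 0.032, while the median of all probes went from -0.08 to 0.42, so Tob2 lay below that median under both. Its cytoplasmic arrays read 8.82 to 9.81 and its nuclear arrays 8.25 to 8.77. Btg3 differed by 0.01 in EDL and -0.12 in soleus (SE 0.20), where arrays overlapped. In TA it was 0.54 higher in nuclei, with nuclei from 8.80 to 8.89 above cytoplasm from 8.12 to 8.59.

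The 3 Cdkn1a probes did not read alike. The 3′ probe did not separate the fractions: it differed by -0.04, -0.55 and 0.50 in EDL, soleus and TA (SE 0.41), and by -0.03 (SE 0.24) over the 3 muscles. The start codon probe was higher in nuclei by 0.63 (SE 0.21) over the 3 muscles, at 0.85 in EDL, 0.75 in soleus and 0.29 in TA. The bases before its ATG include tttcag, letters of the kind found at the end of introns, and whether it reads spliced RNA, unspliced RNA or both was not determined. The variant 2 probe was lower in nuclei in every muscle, by 1.57 (SE 0.25) in all, with differences of -1.28, -2.07 and -1.35 (SE 0.43). Its cytoplasmic arrays read 6.07 to 7.23 in EDL, 5.99 to 7.70 in soleus and 6.44 to 7.62 in TA. Its nuclear arrays read 5.06 to 5.82, 4.84 to 5.23 and 5.43 to 5.57, with no overlap in any muscle. Within each array, variant 2 minus start codon was lower in nuclei than in cytoplasm by a mean of -2.14 in EDL, -2.82 in soleus and -1.64 in TA, again without overlap. Against the 3′ probe variant 2 was lower by -1.24, -1.52 and -1.85, also without overlap, whereas 3′ minus start codon (-0.89, -1.30 and 0.21) overlapped between the fractions in every muscle. In EDL and soleus, 2 arrays of cytoplasm lay apart from the 3rd for these 2 probes: EDL cytoplasm 3 read 6.55 by the start codon probe against 4.99 and 5.34, and soleus cytoplasm 1 read 6.53 against 5.49 and 5.18.

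**Figure D2:**
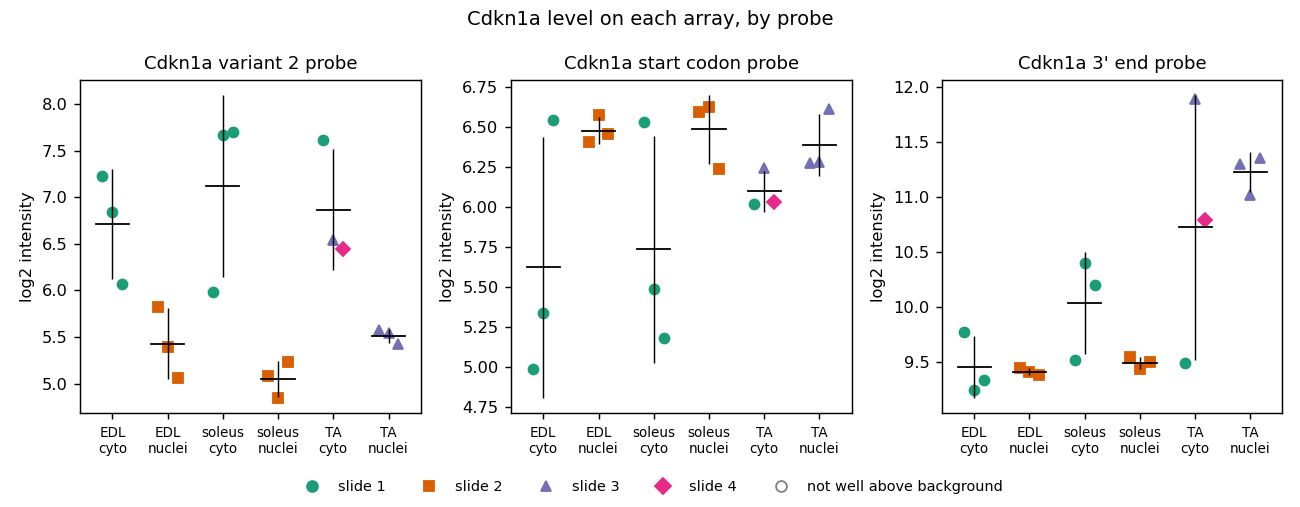
Level of Cdkn1a (log2 intensity) on each array by its 3 probes, from the 5′ end of variant 2 to the 3′ end; points are arrays coloured by slide and bars are the mean ± SD of 3 arrays. By variant 2 every nuclear array of a muscle lies below its cytoplasm, and by the 3′ probe the 3 TA nuclei (11.02 to 11.35) lie above the EDL and soleus nuclei (9.38 to 9.54).

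Gadd45b and Gadd45g, stress-induced members of the Gadd45 family, were higher in nuclei, while Gadd45a showed little difference. Gadd45b read 9.72, 9.09 and 9.97 in EDL cytoplasm against 11.11, 11.20 and 10.88 in EDL nuclei, 9.37, 8.81 and 9.17 against 10.80, 10.54 and 10.62 in soleus, and 9.03, 8.50 and 7.97 against 10.14, 10.36 and 10.12 in TA. No nuclear array overlapped the cytoplasm of its muscle, and the difference was of like size throughout, at 1.46, 1.54 and 1.71 (SE 0.27). Over the 3 muscles it was 1.57 (SE 0.15). Gadd45g differed by 0.94 in EDL, 0.87 in soleus and 1.14 in TA (SE 0.37), with cytoplasm from 10.25 to 12.35 and nuclei from 11.15 to 12.75. TA cytoplasm 2, at 12.35, lay within the range of the TA nuclei. Gadd45a differed by 0.38, 0.18 and 0.22 (0.26, SE 0.29, over the 3 muscles), and its arrays overlapped in every muscle.

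**Figure D3:**
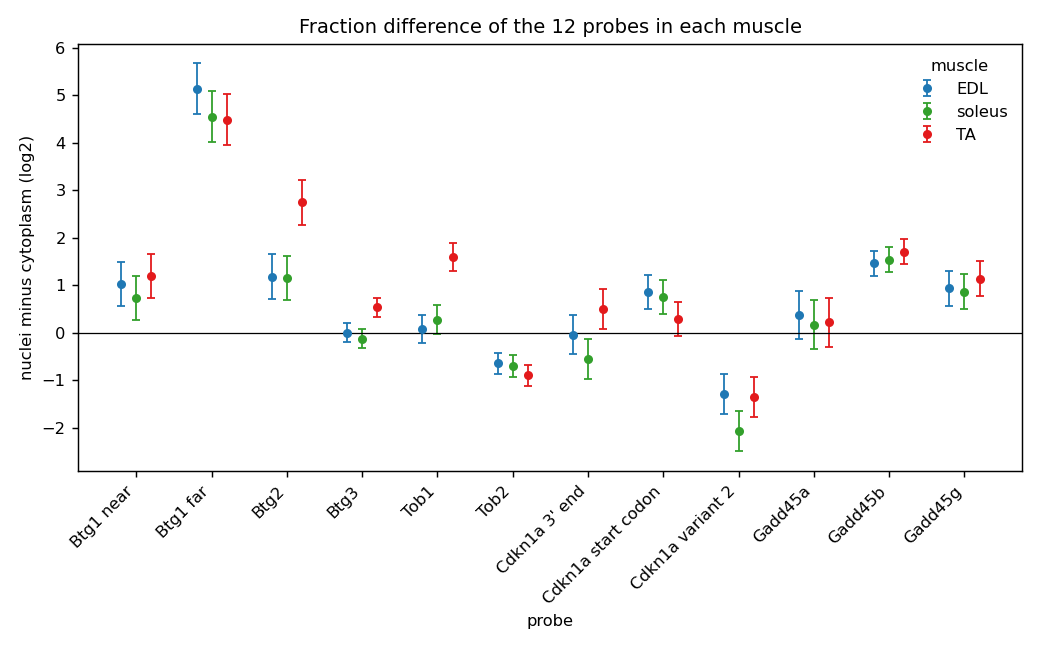
Difference between nuclei and cytoplasm (log2) of each of the 12 probes in EDL, soleus and TA; points are the fitted difference and bars its standard error. Btg1 far stands at 4.49 to 5.14, Btg2 and Tob1 are higher in TA than in EDL and soleus, and Tob2 and Cdkn1a variant 2 lie below 0 in the 3 muscles.

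Since this contrast chose Btg1, the following counts are a description and nothing is read from them. Over the 3 muscles, 9 of the 12 member probes had a limma adjusted p under 0.05, against 69.9% of all probes tested. Of these, 7 were higher in nuclei (31.3% of all probes) and 2 lower (38.6%). Within a muscle the counts were 5 in EDL (46.7% of all probes), 4 in soleus (40.5%) and 9 in TA (52.8%). No overlap in any of the 3 muscles was seen for Btg1 far and Gadd45b on the nuclear side (14.5% of probes with a value on all arrays) and for Tob2 and Cdkn1a variant 2 on the cytoplasmic side (21.4%). The median of the members was 0.64 and that of all probes -0.08.

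The TA fractions could also be compared on slide 3 alone, with TA cytoplasm 2 as the only cytoplasm, which left 1 array on that side. There Btg1 far was 4.02 higher in nuclei, Btg2 2.88, Tob1 1.98 and Gadd45b 1.71, and Tob2 lower by a difference of -1.02. Gadd45g was 0.10 and Cdkn1a 3′ -0.67 on that slide, against 1.14 and 0.50 with 3 cytoplasm arrays. TA cytoplasm 1 stood apart from the other TA cytoplasm for several probes. Without it, the difference in TA was 1.04 for Gadd45a (0.22 with it), -0.12 for Cdkn1a 3′ (0.50 with it) and 0.50 for Btg1 near (1.21 with it). Without soleus cytoplasm 2, the soleus difference was 5.19 for Btg1 far and 1.13 for Btg1 near.

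Whether the fraction difference of a gene depended on the muscle was asked by the interaction of muscle and fraction, a test the choice of members did not use. None of the 12 probes passed an adjusted p of 0.05 (1.62% of all probes did). The lowest were those of Tob1 (adjusted p = 0.110 in limma) and Btg2 (adjusted p = 0.292). Tob1 passed with 1 array left out, at an adjusted p of 0.0241 without soleus cytoplasm 3 and 0.0486 without TA cytoplasm 3. The larger TA difference of Btg2 and Tob1 seen in the plot of fraction differences did not pass this test.

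Muscles were then compared within the nuclear fraction, which asks how the nuclear RNA of a gene differs between fiber sources and is independent of the contrast that chose Btg1. Between TA and EDL, 8 of the 12 probes passed an adjusted p of 0.05 (48.9% of all probes did), 4 higher in TA (19.6%) and 4 lower (29.3%). In these nuclei fewer cells of a type and less RNA per cell cannot be told apart. The p-values below take the 3 nuclear arrays of a muscle as separate samples, as the labels do. With each muscle averaged to 1 nuclear sample the differences stayed the same. The spread in that fit came from cytoplasmic arrays only, so it cannot decide whether nuclear groups differ. For the 3′ probe of Cdkn1a, which has 10 spots, the SD between array means was 0.03 in EDL nuclei and 0.06 in soleus nuclei. The SD between single spots of an array was 0.05 and 0.06. A mean of several spots varies less than 1 spot, so these SDs are unlike and nothing is read from them.

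Cdkn1a by its 3′ probe had the largest difference of the members, being 1.81 higher in TA nuclei than in EDL nuclei (SE 0.10, 3.51-fold, adjusted p = 9.78e-06 in limma). It read 11.30, 11.02 and 11.35 in TA nuclei, 9.44, 9.41 and 9.38 in EDL nuclei and 9.54, 9.43 and 9.49 in soleus nuclei, so all TA arrays lay well above the rest. Against soleus the difference was 1.73 (adjusted p = 8.75e-06). The start codon probe of the same gene did not follow: it was -0.09 (SE 0.14, adjusted p = 0.629) in TA against EDL and -0.10 (adjusted p = 0.600) against soleus. The variant 2 probe gave 0.09 (adjusted p = 0.731) and 0.46 (adjusted p = 0.0753). Within an array, 3′ minus start codon was 4.83 ± 0.16 in TA nuclei, 2.93 ± 0.10 in EDL nuclei and 3.00 ± 0.23 in soleus nuclei (SD, n = 3), a change of 1.90 from EDL to TA with no overlap. The exact 2-sided permutation test gave p = 0.1, the smallest that 3 against 3 arrays allow. At the 10 spots of the 3′ probe the SD between spots of an array was 0.05 to 0.08 in nuclei, and the SD between arrays 0.03 in EDL, 0.06 in soleus and 0.18 in TA.

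Btg1 by its near probe rose by 1.07 from EDL to TA nuclei (SE 0.09, adjusted p = 7.03e-05), by 0.66 from soleus to TA (adjusted p = 0.000624) and by 0.41 from EDL to soleus (adjusted p = 0.0239). The far probe went the other way, being 0.26 lower in TA than in EDL (a difference of -0.26, adjusted p = 0.0444) and lower than in soleus by a difference of -0.43 (adjusted p = 0.00473). Far minus near was 0.88 ± 0.17 in EDL nuclei, 0.65 ± 0.09 in soleus nuclei and -0.44 ± 0.14 in TA nuclei (SD, n = 3). The 3 TA arrays lay below all others, with the exact permutation p at its floor of 0.1. The small EDL difference of the far probe was lost when EDL and soleus arrays of the same mice were blocked (adjusted p = 0.0751), and in 8 of the 9 fits that left out 1 nuclear array (adjusted p up to 0.126).

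Besides Btg1 by its far probe, the genes that were lower in TA nuclei were Btg2, Gadd45a and Gadd45b. Btg2 was lower than in EDL by a difference of -1.59 (SE 0.11, adjusted p = 3.17e-05) and than in soleus by -1.67 (adjusted p = 1.93e-05). Gadd45a read 8.85, 8.71 and 8.38 in EDL nuclei, 8.04, 8.18 and 8.24 in soleus nuclei and 6.97, 6.87 and 7.15 in TA nuclei. These did not overlap, and TA stood at -1.65 against EDL (SE 0.14, adjusted p = 5.78e-05) and -1.16 against soleus (adjusted p = 0.000272). Gadd45b was at -0.85 (adjusted p = 0.000748) and -0.44 (adjusted p = 0.0161). Its relative Gadd45g was instead higher in TA nuclei, by 0.65 against EDL (adjusted p = 0.00771) and 1.22 against soleus (adjusted p = 0.000319).

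The remaining members moved less. Btg3 was 0.39 higher in TA than in EDL nuclei (adjusted p = 0.00730) and 0.06 against soleus (adjusted p = 0.635). Tob1 was 0.34 higher in TA than in soleus nuclei (adjusted p = 0.0472), and no longer passed in 6 of the 9 fits that left out 1 nuclear array (adjusted p up to 0.142). With no scaling between arrays its difference was -0.29, where the median of all probes went from -0.10 to -0.69. Tob2 did not pass the threshold, at 0.08 against EDL (adjusted p = 0.547) and 0.25 against soleus (adjusted p = 0.0850). In TA against soleus 8 of 12 probes passed (49.2% of all probes). Between soleus and EDL nuclei, which lay on the same slide, 4 of 12 passed (13.8% of all probes, 8.15% higher and 5.65% lower): Btg1 near (0.41, adjusted p = 0.0239) and Btg3 (0.34, adjusted p = 0.0421) were higher in soleus, and Gadd45a (-0.50, adjusted p = 0.0492) and Gadd45g (-0.57, adjusted p = 0.0410) lower. With the shared mice as a replicate block none of these 4 passed, at adjusted p-values of 0.0638, 0.0776, 0.109 and 0.0939.

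**Figure D4:**
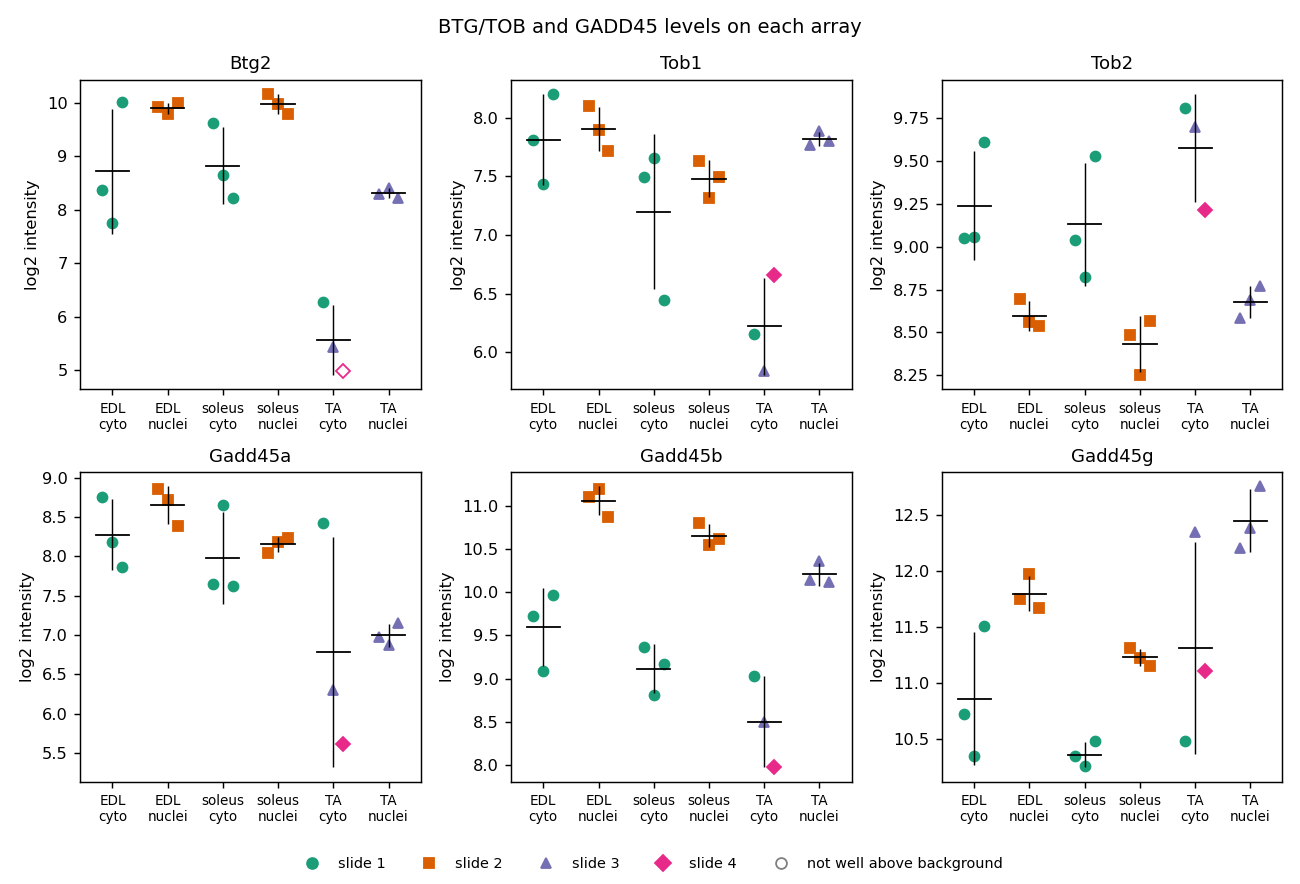
Level (log2 intensity) of Btg2, Tob1, Tob2, Gadd45a, Gadd45b and Gadd45g on each of the 18 arrays; points are arrays coloured by slide, open where not well above background, and bars are the mean ± SD of 3 arrays. TA nuclei lie below the other nuclei for Btg2, Gadd45a and Gadd45b and above them for Gadd45g, and TA cytoplasm 1, on slide 1, lies near the EDL and soleus cytoplasm for Gadd45a and Gadd45g.

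Markers of other cell types moved between these nuclear groups as well. In TA against EDL nuclei, 6 of 8 endothelial markers were higher, 6 of 6 Schwann cell markers and 5 of 7 connective tissue markers lower, and 7 of 8 myofiber markers lower. Of 8 macrophage markers 3 were higher and 2 lower. Of all genes tested in these nuclei 22.1% were higher and 28.2% lower. The summed endothelial markers were 8990 to 10600 in TA nuclei against 7710 to 7890 in EDL nuclei, the connective tissue markers 37900 to 41400 against 70800 to 73600, and the Schwann cell markers 1390 to 1580 against 3700 to 3870. The part of these cells in the muscle differences was not tested.

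In the cytoplasm, where replicates varied more, few members separated the muscles. Between soleus and EDL 0 of 12 probes passed in limma (0.0924% of all probes did). Between TA and EDL 0 passed (0.0216% of all probes). The lowest adjusted p was that of Btg2, which read 6.28, 5.44 and 4.98 in TA against 7.76 to 10.03 in EDL (difference -3.15, SE 0.59, adjusted p = 0.112). Tob1 (-1.59, adjusted p = 0.160) and Gadd45b (-1.09, adjusted p = 0.192) also had no overlap. Between TA and soleus Btg2 was the 1 member that passed (4.49% of all probes), at -3.26 (SE 0.59, adjusted p = 0.0240). It no longer did when soleus cytoplasm 1, soleus cytoplasm 2, TA cytoplasm 2 or TA cytoplasm 3 was left out (adjusted p up to 0.115).

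TA cytoplasm 1 decided part of this comparison. For Gadd45a it read 8.42 against 6.30 and 5.61 on the other TA cytoplasm arrays, and for Cdkn1a 3′ 9.49 against 11.89 and 10.79. It lay on slide 1 with all EDL and soleus cytoplasm, and on that slide TA minus EDL was 0.04 for Cdkn1a 3′ and 0.15 for Gadd45a, but -2.44 for Btg2 and -1.66 for Tob1. Without this array Btg2 (-3.51, adjusted p = 0.0102), Gadd45a (-2.32, adjusted p = 0.00993), Gadd45b (-1.36, adjusted p = 0.0377) and Cdkn1a 3′ (1.89, adjusted p = 0.0194) passed in TA against EDL. Gadd45a then also passed against soleus (-2.02, adjusted p = 0.0146). In those fits no TA array shared a slide with EDL or soleus cytoplasm, so muscle and slide cannot be told apart. The share of all probes that passed in them is not given here. Whether slide or mouse set TA cytoplasm 1 apart was not tested.

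Btg2 and Cdkn1a had the largest muscle differences in nuclei besides Gadd45a, Cdkn1a by its 3′ probe only. Their promoters are shown as context for what is known of their induction. They are the 250 bases before the start in RefSeq on GRCm38.p6, printed in the direction of transcription, and all 9 genes were found, with 11 windows. TGACGTCA, the full cyclic AMP response element, was searched on both strands. It was in the Btg2 window, 166 bases before the start and in capitals below, and in 1.55% of the 32851 windows.
Btg2, chr1:134079156-134079405, minus strand: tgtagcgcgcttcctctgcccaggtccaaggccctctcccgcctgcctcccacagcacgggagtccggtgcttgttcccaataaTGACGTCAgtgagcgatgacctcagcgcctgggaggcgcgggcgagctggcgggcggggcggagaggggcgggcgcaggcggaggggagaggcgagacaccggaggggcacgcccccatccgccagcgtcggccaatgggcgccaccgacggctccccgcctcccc
Letters matching a strict p53 pattern, 2 decamers with a gap of 0 to 13 bases, were in the upstream Cdkn1a window and in 0.0639% of windows. Both decamers are in capitals, beginning 73 bases before the start. The bases right after the second decamer, tgacatgttc, miss the pattern at their first base only and were left in lower case. The other Cdkn1a window, at chr17:29093519-29093768, held none. Which start gave the RNA read by the 3′ probe was not determined.
Cdkn1a, chr17:29090729-29090978, plus strand: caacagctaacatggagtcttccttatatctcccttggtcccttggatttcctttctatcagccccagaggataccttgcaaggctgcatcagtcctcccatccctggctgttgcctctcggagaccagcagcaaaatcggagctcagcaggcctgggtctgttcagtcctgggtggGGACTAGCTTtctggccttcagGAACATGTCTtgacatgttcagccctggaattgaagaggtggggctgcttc
TATAAA, searched on both strands, was in the windows of Btg1, Tob1, Gadd45b and Gadd45g and in 12.4% of all windows. These matches are descriptions of the sequence only, and the arrays did not measure binding.

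Genes that work with these proteins were read by their brightest probe, in lists drawn up by function. Among 16 genes of the CCR4-NOT complex and the poly(A) tail, 15 were tested, 11 were higher in nuclei over the 3 muscles and 0 lower, with a median of 0.67. Over all 27373 genes tested, 30.3% were higher and 40.3% lower, with a median of -0.11. The largest were Pan2 (2.62, SE 0.42, adjusted p = 4.90e-05) and Pan3 (1.68, SE 0.26, adjusted p = 3.00e-05), which form a separate deadenylase, and Cnot1 (1.54, SE 0.18, adjusted p = 1.70e-06), the scaffold of CCR4-NOT. Of the catalytic subunits that BTG/TOB proteins bind, picked for that role after their values were seen, Cnot8 was 1.53 higher (adjusted p = 8.45e-09) and Cnot7 was at 0.36 (adjusted p = 0.250). The poly(A)-binding protein genes Pabpc1 and Pabpc4 were at 0.05 and 0.07 and did not pass.

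Around Cdkn1a, 19 of 20 genes of the p53 pathway and other CDK inhibitors were tested. Of these, 7 were higher in nuclei and 2 lower, with a median of 0.29. Those with the largest differences were Mdm4 (2.09), an inhibitor of p53, and the p53 targets Zmat3 (1.52) and Sesn1 (1.09). On the cytoplasmic side were the CDK inhibitor Cdkn2a (-1.68) and Sesn2 (-1.58). Trp53 itself was at 0.07 (adjusted p = 0.597). Among 13 cyclin and CDK genes 10 were tested, 4 were higher and 3 lower, with a median of 0.35. Ccnd2 (1.04), Pcna (0.61) and Ccnd1 (0.53) were higher in nuclei, and Ccnb1 (-2.07), Cdk1 (-0.77) and Ccne1 (-0.60) lower. Among 13 partners of Gadd45 in the p38 and JNK branch, all tested, 4 were higher and 1 lower, with a median of 0.18. Mapk12 (1.31) and Mapk14 (0.77), which encode p38 kinases, and their activator Map2k6 (0.51) were higher, and Map2k7, which activates JNK, was lower (-1.50). Map3k4, the kinase that Gadd45 proteins bind, was at 0.33 (adjusted p = 0.222).

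Between TA and EDL nuclei the lists did not move as 1. Of the cyclin and CDK genes 7 of 11 tested were higher in TA and 0 lower, with a median of 0.64 against -0.07 for all genes, of which 22.1% were higher and 28.2% lower. Of the p53 list 5 were higher and 8 lower, of the CCR4-NOT list 5 higher and 2 lower, and of the Gadd45 partners 6 higher and 6 lower.

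**Figure D5:**
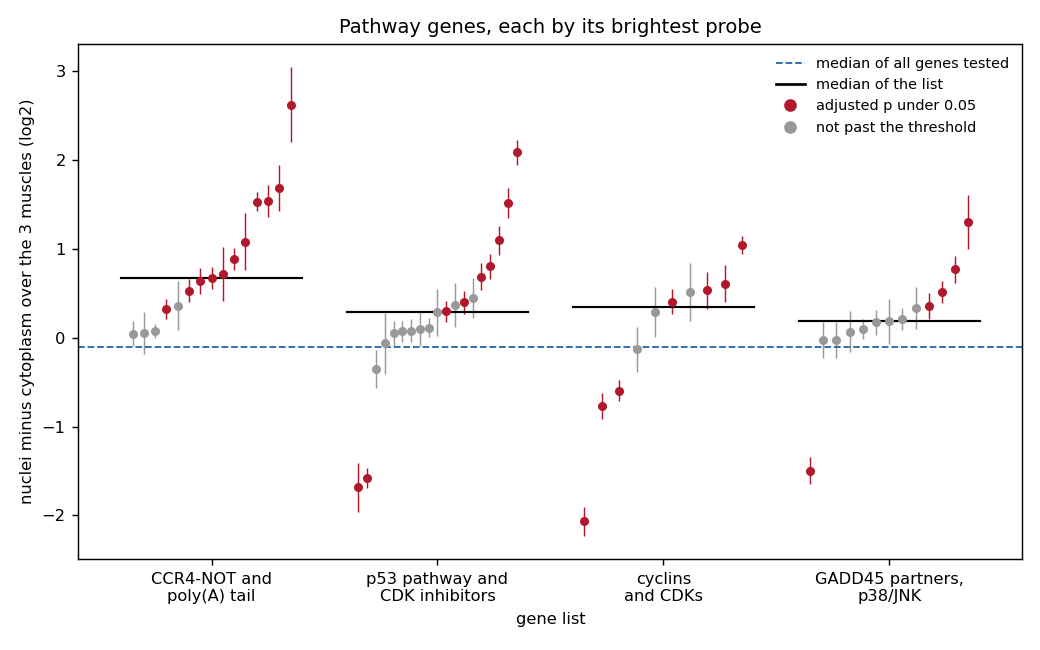
Difference between nuclei and cytoplasm over the 3 muscles (log2) of the genes in 4 lists, each point a gene with its standard error, red where the adjusted p was under 0.05. Black lines mark the median of each list (0.67, 0.29, 0.35 and 0.18 from left to right) and the dashed line the median of all genes tested (-0.11).

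The genes whose level followed the Btg1 near probe most closely over the 18 arrays were Ctsl (Pearson r = 0.979), Ctnnd1 (0.973), Tmem132a (0.969) and Hmg20b (0.966). The Btg1 far probe followed it with r = 0.581, and with -0.637 over the 9 nuclear arrays and 0.061 over the 9 cytoplasmic arrays. These values describe likeness on shared arrays, which also share fraction, muscle and slide, and they have no p.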

How the data were processed

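RNA of nuclear and cytoplasmic myofiber fractions was labelled with Cy3 and hybridised to Agilent 8x60K mouse arrays, 18 in all. Per the file headers and the submitters' processing notes, the deposited scanner files hold an intensity per spot, background-corrected on each array by Feature Extraction 10.7.3.1 and not scaled to other arrays. A deposited table gives log2 values, for 3687 features, which holds 0 of the member probes and was used as an alternative only.

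As in the study's methods, spots without the positive and significant flag were set to missing, log2 intensity was quantile-normalised and spots of a probe name were averaged. Outlier spots were also set to missing and the 3671 control spots left out. The methods then used SAM, which was not run here. Group means were fitted with limma 3.58.1 (lmFit and eBayes) in R 4.3.3, on 18 arrays for the fractions and the interaction (12 residual degrees of freedom, 1 spread per probe for both fractions) and on the 9 arrays of a fraction for the muscles (6). A probe was tested with a value on at least 2 of 3 arrays in each group involved. All p-values of single probes are 2-sided, from limma, and adjusted by Benjamini and Hochberg over every probe of the comparison, and 0.05 was the threshold. The fits were tested on simulated data. Figures were drawn with matplotlib 3.10.9.

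Members and gene lists were chosen with earlier results of these data known. Every member probe was named. Of each list, up to 3 genes per direction among those called were named, and Trp53, Map3k4, Cnot7, Cnot8, Pabpc1 and Pabpc4 were added for their role after their values were seen. For likeness to Btg1, its brightest probe was correlated with all others and the 5 highest were taken, of which 1 is not reported here.

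By the labels, EDL and soleus samples of the same number come from the same mice. The deviations of such arrays from their group means correlated between -0.11 and 0.10 in 18 pairs over 35528 probes, so the block was kept as an alternative. The labels call the samples biological replicates, and p-values in nuclei rest on that. The number of arrays limits the precision, and no depth applies. Alternatives were scaling, background correction, filters on dim spots, the replicate block, the slide, the nuclear arrays averaged, 1 fit for all arrays, and each array left out.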

Additional observations from a re-analysis of the deposited data

How the results depend on the processing

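Over the alternatives 82 of 2538 member differences turned sign. In 4 of these the difference had passed the threshold, all with no scaling between arrays, under which the median over all probes went from -0.08 to 0.42 for the 3 muscles together. In the same setting it stood at 0.35 for EDL, at 0.96 for soleus and at -0.69 between the nuclei of TA and soleus. Tob2 in nuclei minus cytoplasm went to 0.032 over the 3 muscles, 0.048 in EDL and 0.54 in soleus, and Tob1 in TA minus soleus nuclei to -0.29. All 4 lay on the same side of that median as before. With slide as a block 9 of 36 differences turned, none of which had passed, among them Cdkn1a 3′ in TA nuclei minus cytoplasm (0.50 to -0.67) and Gadd45a in TA cytoplasm minus EDL (-1.49 to 0.15), and with 1 array left out 42 of 1512, again none that had passed. No scaling also called 8 member probes in EDL and 10 in soleus (5 and 4 otherwise), 16 genes of the p53 list (9) and 13 of the Gadd45 partners (5). The share of all probes called in each setting is not given here. These and the following counts therefore do not tell a change of the members from one of the whole array.

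With the replicate block, soleus minus EDL in nuclei had 0 member calls in place of 4 and TA minus EDL in nuclei 7 in place of 8, and no other count of member calls changed. In fits of both fractions the block also paired TA arrays by number. TA cytoplasm 3 (mouse 9) and TA nuclei 3 (mouse 3) share no mouse, so that pairing was not one of mice throughout. With the nuclear arrays of a muscle averaged to 1 sample, 0 of 84 member differences turned sign. The spread then came from the cytoplasmic arrays only, so no count of calls is given for that setting. With all 18 arrays in 1 fit, the counts were 0 for soleus minus EDL, 4 for TA minus EDL and 3 for TA minus soleus in nuclei, and 3 for TA minus EDL and 3 for TA minus soleus in cytoplasm. With slide as a block TA minus soleus in cytoplasm had 0. The deposited values held 1 gene each of the p53, cyclin and Gadd45 lists and called 1, 1 and 0. The causes were not tested, other than the fewer samples or genes that the settings themselves use.

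Leaving out each array in turn gave 9 to 10 member calls over the 3 muscles, 2 to 7 in EDL, 3 to 6 in soleus and 6 to 9 in TA. It gave 0 to 4 for soleus minus EDL, 7 to 8 for TA minus EDL and 7 to 9 for TA minus soleus in nuclei. In cytoplasm it gave 0, 0 to 4 and 0 to 2 in the same order, and 0 to 1 in the interaction. The lists ran from 10 to 12 (CCR4-NOT), 7 to 11 (p53), 6 to 8 (cyclins and CDKs) and 4 to 6 (Gadd45 partners). The soleus calls in nuclei were lost without EDL nuclei 1 or 2 or any of the soleus nuclei. Slide as a block was not run for the fractions in EDL and soleus, for TA nuclei or for the interaction, where slide and group cannot be told apart.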
